A study of Homo sapiens with 2 samples.

Results

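The RAB GTPase genes were taken as the protein-coding genes of GENCODE release 44 on GRCh37 whose symbol is RAB, a number and at most a closing letter or A and L. This rule found 63 of 20162 protein-coding genes. The annotation of this build gave RAB7B under no matching symbol, and that gene was not analysed here. The data are 1 ChIP library for CHD4 and 1 input library from 501Mel, an established human melanoma line grown in serum-containing medium, with chromatin fixed in 0.4% paraformaldehyde before sonication. No allele, agent or time point separates the libraries. The deposited result is a list of 60126 broad peaks, regions where the ChIP signal exceeded the background of the peak caller, with a fold enrichment and a −log10 q (q being the p-value corrected for the number of places tested) for each. The lowest −log10 q in the list is 1, and 48.5% of all peaks reach 2. Neither library was repeated, so no replicate spread and no test can be given, and the list gives no read depth behind a peak. Intervals given below are 95% Wilson intervals on shares and exact Poisson intervals on peak numbers, and they cover counting error only. A peak list measures no RNA, so the melanoma identity of the cells could not be checked against marker genes.

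RAB proteins are small GTPases of the RAS superfamily that switch between a GDP-bound and a GTP-bound form and give membrane compartments their identity. In the GTP-bound form each recruits effectors such as motors, tethers and lipid kinases, exchange factors load GTP, and GTPase-activating proteins end the cycle. In pigment cells RAB27A ties mature melanosomes to actin through melanophilin and myosin Va, while RAB32 and RAB38 carry pigment enzymes to maturing melanosomes. CHD4 is the ATPase of the nucleosome remodelling and deacetylase (NuRD) complex and binds at promoters and enhancers of active and repressed genes.

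Each gene was given a window made of the gene and the 2000 bp before its start. CHD4 peaks lay in the windows of 43 of the 63 RAB GTPase genes, and in 29 of them a peak came within 1000 bp of the canonical transcription start, here called the promoter. The strongest peaks by fold enrichment belonged to RAB3A, RAB11A, RAB40C and RAB3C, and the most peaks to RAB3C, RAB38, RAB8B, RAB30 and RAB7A. Between them these windows held 158 distinct peaks, of which 42 were centred before the canonical start, 108 in introns and 8 in exons. The first intron alone held 57. A −log10 q of 2 was reached by 73 of the 158 peaks (46.2%), against 48.5% of all peaks.

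The bases under some of the strongest peaks are shown so that the sites behind the values can be seen. They are the whole peak where it is short (RAB11A, RAB14, RAB7A) and its central 200 bases where it is longer (RAB3A, RAB30, RAB38), read from GRCh37 on the strand of the gene, 5′ to 3′. Capitals mark matches, on either strand, to 2 words discussed further down, CATGTG and ACAAAG.
RAB3A chr19:18315678-18315877 (- strand): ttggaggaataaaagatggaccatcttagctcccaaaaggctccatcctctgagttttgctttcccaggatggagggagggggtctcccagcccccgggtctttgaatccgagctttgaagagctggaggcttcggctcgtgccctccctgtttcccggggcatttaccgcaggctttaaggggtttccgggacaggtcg
RAB11A chr15:66149390-66149553 (+ strand): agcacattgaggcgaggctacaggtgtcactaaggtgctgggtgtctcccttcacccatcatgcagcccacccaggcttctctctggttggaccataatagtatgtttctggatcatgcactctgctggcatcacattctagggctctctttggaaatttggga
RAB14 chr9:123975921-123976071 (- strand): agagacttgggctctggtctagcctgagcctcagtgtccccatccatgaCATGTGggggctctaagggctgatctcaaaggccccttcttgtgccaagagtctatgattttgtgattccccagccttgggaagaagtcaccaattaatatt
RAB30 chr11:82700472-82700671 (- strand): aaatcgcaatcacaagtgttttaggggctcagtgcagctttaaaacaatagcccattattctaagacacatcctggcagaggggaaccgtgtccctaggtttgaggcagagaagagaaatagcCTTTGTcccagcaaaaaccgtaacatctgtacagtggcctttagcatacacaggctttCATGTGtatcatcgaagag
RAB7A chr3:128527275-128527574 (+ strand): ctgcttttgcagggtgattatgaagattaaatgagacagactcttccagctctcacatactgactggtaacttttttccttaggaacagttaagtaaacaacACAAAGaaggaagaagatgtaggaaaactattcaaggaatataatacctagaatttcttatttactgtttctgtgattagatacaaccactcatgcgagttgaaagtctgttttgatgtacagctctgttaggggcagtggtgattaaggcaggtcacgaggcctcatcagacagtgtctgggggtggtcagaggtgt
RAB38 chr11:87848795-87848994 (- strand): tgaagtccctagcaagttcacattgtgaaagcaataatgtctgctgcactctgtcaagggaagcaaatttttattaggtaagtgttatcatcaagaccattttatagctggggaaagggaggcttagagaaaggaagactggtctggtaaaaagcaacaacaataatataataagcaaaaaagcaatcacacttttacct
The RAB3A bases lie before the start of the gene, where exons annotated outside RAB3A also lie. The RAB30, RAB7A and RAB38 bases lie in introns of the canonical transcripts. Those of RAB11A and RAB14 lie upstream of the canonical start but inside longer transcripts of the same genes. An annotated exon outside the canonical transcript overlaps the RAB38 bases.

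The melanosome members differed from each other. RAB38 held 12 peaks in a window of 64193 bp, which together covered 18.0% of it. One lay at the promoter (fold 3.15), 5 in intron 1 and 6 in intron 2. The strongest, at 3.98-fold with a −log10 q of 3.59, lay 59716 bp after the start in intron 2, and the longest, a region of 4223 bp in intron 1, reached 3.35-fold. Of the 982 genes whose window length was within 10% of that of RAB38, 0.713% had as many peaks, and their median was 1. The 500 kb on either side of RAB38 held 36 peaks per Mb, against 187 per Mb in its window. RAB27A, in a longer window of 118148 bp, had 2 weak peaks. One of 2.96-fold lay in intron 2, and one of 2.91-fold lay 30532 bp before the canonical start, where it was shared with PIGB and PIGBOS1. Neither reached a −log10 q of 2, and 58.7% of genes of similar length had at least as many peaks. RAB32, the closest relative of RAB38, had no peak in its 13121 bp, and the nearest one lay 9896 bp away. Of genes of similar length 49.0% had a peak. For its length, RAB38 was thus the melanosome member with an uncommon number of peaks. Most of them were weak too, since only 2 of the 12 reached a −log10 q of 2.

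**Figure D1:**
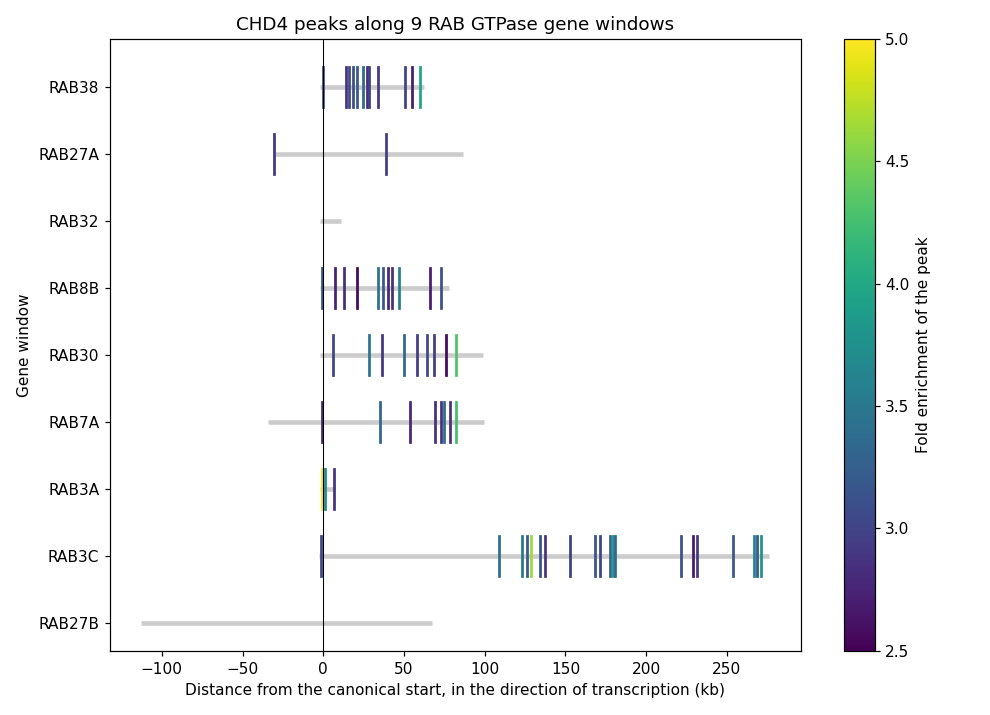
CHD4 peaks along the windows of 9 RAB GTPase genes. The x axis is the distance from the canonical start in kb in the direction of transcription, grey bars are gene windows, and vertical strokes mark peak centres (not peak lengths), coloured by fold enrichment; RAB38 carries 12 peaks and RAB3C 20, while RAB32 and RAB27B carry none.

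Of the 7 members that act in regulated secretion 5 had a peak (71.4%, against 67% of length-matched genes). RAB3A, a RAB of synaptic and secretory vesicles, had the strongest peak of the family, 5.02-fold with a −log10 q of 7.24, centred 926 bp before its start and 973 bp long. A second peak of 3.68-fold lay 787 bp after the start in intron 1, and another of 2.89-fold lay in the last exon. Among 851 genes of similar window length 3.88% had as many peaks as RAB3A and 0.235% a peak as strong. The surroundings of RAB3A were also the densest of any member, with 134 peaks per Mb in the 500 kb on either side. RAB3C held 20 peaks between 2.67-fold and 4.63-fold in the longest window of the family (279174 bp), and 11 of them reached a −log10 q of 2. They were spread over introns 2 to 4 and the last exon, with 1 before the start. In genes of similar length 7.01% had as many. RAB3B had 6 peaks, the strongest of 4.02-fold in intron 2, and RAB3D 3. The strongest of RAB3D, 3.75-fold, lay 6536 bp before the canonical start and was shared with CCDC159 and TMEM205, as was one of 3.13-fold, while its promoter peak of 3.49-fold was not shared. All 4 RAB3 paralogues thus had at least 1 peak shared with no other protein-coding window. RAB26 had 3 peaks with a highest fold of 4.27. RAB27B and RAB37 stood apart. RAB27B, the paralogue of RAB27A, had no peak in 179657 bp although 85.9% of genes of similar length had one, and no peak fell in the 500 kb on either side of it. RAB37 had none in 78758 bp, with the nearest peak 2961 bp away and 47 peaks per Mb around it. The median strongest fold over the 5 secretion members with a peak was 4.27.

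Of 13 members of the ER and Golgi, 9 had a peak (69.2%, against 59.2% of length-matched genes) and 5 a promoter peak. RAB30 was the richest, with 9 peaks, all of them intronic. Its strongest, 4.30-fold, lay in intron 3, and a region of 4808 bp in intron 1 reached 3.47-fold. RAB1A, which acts in transport from the ER to the Golgi, had a promoter peak of 3.63-fold that covered its start, plus 3 intronic peaks of at most 2.89-fold. Its paralogue RAB1B had 1 promoter peak of 3.18-fold, shared with KLC2. RAB6A had 4 peaks and RAB6B 1, a region of 2846 bp in intron 1 at 4.03-fold. RAB2A had 2 intronic peaks (3.66-fold and 3.30-fold), whereas RAB2B had none, its nearest peak lying 2222 bp away. RAB33A, the only member on chromosome X with a peak, reached 3.55-fold in an intron, and RAB33B reached 3.06-fold at the promoter. RAB43 had 3 peaks of at most 3.22-fold, all of which also lie in the readthrough gene ISY1-RAB43. RAB6C, RAB18 and RAB41 had no peak.

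At the early endosome 6 of 7 members had a peak (85.7%, against 65.6% of length-matched genes). RAB22A had the strongest of them, 4.14-fold at the promoter, and its paralogue RAB31 had 4 intronic peaks of up to 3.84-fold. The RAB5 paralogues, which organise early endosome fusion, differed. RAB5A had no peak and the nearest lay 27612 bp away. RAB5C had 1 of 2.71-fold, the weakest strongest peak of the family, shared with a protein-coding gene that has no symbol. RAB5B reached 3.99-fold, but in a region of 3006 bp before its start that also overlaps the windows of CDK2 and of PMEL, the gene of the melanosome matrix protein, so it cannot be assigned to RAB5B alone. RAB20 carried 4 intronic peaks of up to 3.59-fold and RAB21 a promoter peak of 3.39-fold.

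In recycling and polarised transport 10 of 13 members had a peak (76.9%, against 61% of length-matched genes), 37 peaks in all. RAB8B, which acts in transport to the plasma membrane, held 11, of which 8 were in intron 1. These included a region of 6059 bp at 3.58-fold, the longest and strongest of the gene. In genes of similar length 1.94% had as many peaks as RAB8B. RAB8A by contrast had 1, of 3.03-fold. RAB11A, the RAB of the recycling endosome, had a 164-bp peak of 4.95-fold with a −log10 q of 5.91, at 12358 bp before the canonical start. Its window of 167936 bp reaches far upstream through longer transcripts, 6 of its 7 peaks were centred before the canonical start, and 3 of those also lie in the exchange factor gene DENND4A. RAB11B had a peak of 3.71-fold over its start, and RAB25, their other paralogue, had none. RAB14 had a promoter peak of 4.31-fold and an upstream peak of 4.39-fold that is shared with GSN. RAB4B had 1 peak of 4.14-fold over its start, shared with MIA and with readthrough genes, while its paralogue RAB4A had none. RAB17, described in epithelial and pigment cells, had 4 peaks, among them a region of 2689 bp over its start at 3.45-fold. RAB10 (5 peaks, up to 3.45-fold), RAB13 (3.40-fold) and RAB35 (2.85-fold) completed the members with a peak, and RAB15 had none. The RAB13 peak was shared with a protein-coding gene that has no symbol.

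Of the 5 late endosomal, lysosomal and autophagy members 2 had a peak (40%), against 51.9% of length-matched genes. RAB7A, which drives maturation to the lysosome, carried 8 of the 9 peaks of this group. Its promoter peak was weak (2.78-fold), and the strongest, a region of 300 bp in intron 5, reached 4.25-fold. RAB29 had 1 promoter peak of 3.07-fold, and RAB24 had none, nor had RAB9A and RAB9B, both on chromosome X. All 3 ciliary members had peaks (59.1% of length-matched genes did), RAB28 up to 3.90-fold, RAB34 3.57-fold at a promoter shared with RPL23A, and RAB23 3.19-fold. Of the 12 remaining members 6 had a peak, against 51.7% of length-matched genes. RAB40C had a 174-bp promoter peak of 4.66-fold, RAB19 reached 4.02-fold, RAB40B 3.62-fold and RAB44 3.52-fold. RAB42 reached 3.19-fold in a region shared with TAF12, and RAB36 2.78-fold in one shared with RSPH14. The RAB40 paralogues on X, RAB40A and RAB40AL, had none.

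**Figure D2:**
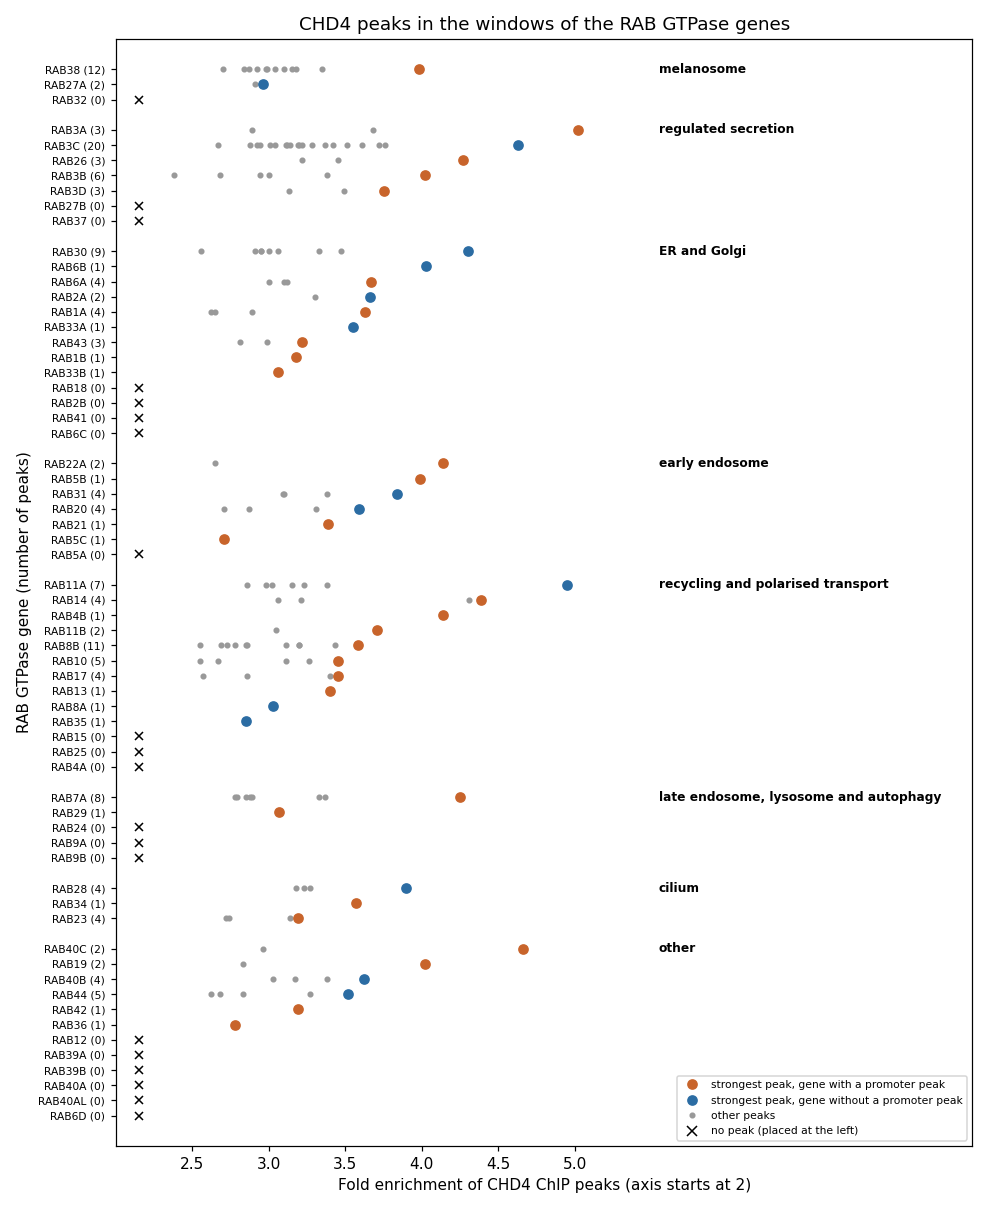
Fold enrichment of every CHD4 peak in the windows of the 63 RAB GTPase genes, by role. The x axis is the fold enrichment (it starts at 2), the number of peaks follows each name, large points are the strongest peak of a gene (orange where the gene has a promoter peak, blue where it has none), small grey points are other peaks and crosses, placed at the left, are genes without a peak; RAB3A has the highest fold, 5.02.

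Members without a peak were 20, namely RAB2B, RAB4A, RAB5A, RAB6C, RAB6D, RAB9A, RAB9B, RAB12, RAB15, RAB18, RAB24, RAB25, RAB27B, RAB32, RAB37, RAB39A, RAB39B, RAB40A, RAB40AL and RAB41. For 7 of them the nearest peak lay within 10 kb, and for 6 it lay over 100 kb away. Their surroundings held fewer peaks, with a median of 11 per Mb in the 500 kb on either side against 43 per Mb around the 43 members with a peak. The same medians over other protein-coding genes were 19 and 35 per Mb. Their windows were also shorter, with a median of 21150 bp against 37359 bp. On chromosome X, 6 of the 7 members had no peak. Over all protein-coding genes of X 23.9% had one (208 of 869). Read mapping also touched part of the list. Reads with several equally good positions had been dropped by the authors, and the share of 50-base words that occur once in the genome was lowest in RAB6C (57.9%), RAB6D (61.4%) and RAB40AL (76.5%), all without a peak. The part of mapping, X linkage and surroundings in the missing peaks was not tested.

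The share of members with a peak, 68.3% (43 of 63, interval 56.0 to 78.4), compared with 58.3% of all protein-coding genes. Since long genes catch more peaks, the other genes were averaged over 20 classes of window length in the proportions of the members, which gave 59.4%. The difference was 8.89 percentage points, and the length-matched share lay within the counting interval of the members. Outside chromosome X the share was 75% (42 of 56, interval 62.3 to 84.5) against 62.6% for length-matched genes, which lay just inside the interval. Promoter peaks were present in 46.0% of members (interval 34.3 to 58.2), against 34.6% of all and 36.1% of length-matched genes. A peak with a −log10 q of at least 2 was found in 55.6% (35 of 63), against 43.2% of all genes. At a −log10 q of at least 5, only RAB3A, RAB11A, RAB40C and RAB3C were left, 6.35% of members against 4.73% of all genes. At least 2 peaks were found in 44.4% (28 of 63), against 34.5% of all genes. In each of these counts the share of members was above that of all genes. Outside chromosome X, members against all genes, not length-matched, gave 51.8% (interval 39 to 64.3) against 35.8% for a promoter peak. At least 2 peaks gave 50% (37.3 to 62.7) against 35.5%. A −log10 q of at least 2 gave 60.7% (47.6 to 72.4) against 44.5%, and one of 5 gave 7.14% (2.81 to 17) against 4.87%. Leaving out X was decided after the data were seen. With X kept, the comparison could be matched on length. With X, the length-matched share lay within the members' interval for any peak (59.4%), a promoter peak (36.1%) and at least 2 peaks (34.2%). The same held for a −log10 q of at least 2 (43.6%) or 5 (4.65%).

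**Figure D3:**
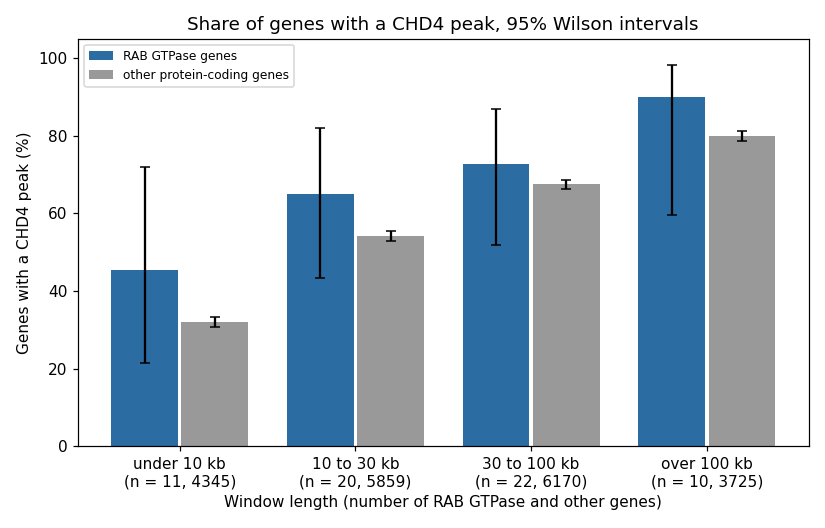
Share of genes with a CHD4 peak (y axis, percent) in 4 classes of window length (x axis, kb) for the RAB GTPase genes (blue) and other protein-coding genes (grey). Bars are shares with 95% Wilson intervals; members run from 45.5% under 10 kb to 90.0% over 100 kb and others from 32% to 80%, and the members' intervals include the others' share in every class.

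By number, the members held 2.51 peaks per gene against 1.76 in length-matched genes, a ratio of 1.43. This rests in part on a few genes, since the 5 members with the most peaks held 60 of the 158 peaks (38%). Without RAB3C, RAB38 and RAB8B, the members with the most peaks, the means were 1.92 and 1.61, a ratio of 1.19. The length-matched genes kept their own peak-rich genes, so this ratio falls by construction. Per 100 kb of window the members held 5.10 peaks (interval 4.33 to 5.96), against 2.58 over all genes. The summed length of all genes is weighted to very long genes and is not matched on length. The interval counts peaks as independent, although 60 of the 158 lay in 5 members, and is thus too narrow. Single peaks were as strong as elsewhere, with a median fold of 3.13 over 158 peaks against 3.09 over the peaks of all protein-coding windows. The strongest peak per gene had a median of 3.63 over the 43 members and 3.44 over all genes with a peak. Sharing with another protein-coding window was seen for 19 of the 158 peaks (12.0%), against 9.83% of peaks in all protein-coding windows.

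**Figure D4:**
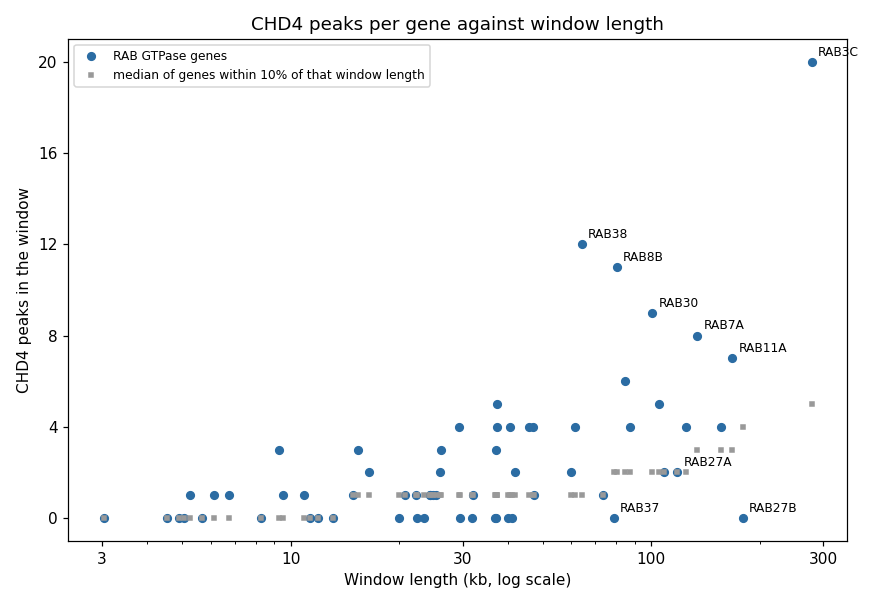
CHD4 peaks per gene (y axis) against window length (x axis, kb, log scale). Blue points are the 63 RAB GTPase genes and grey squares the median of other protein-coding genes within 10% of the same window length. RAB38 with 12 peaks stands against a median of 1, and RAB27B with none against a median of 4.

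Promoter peaks of the RAB genes lay mostly before the start. Of 31 promoter peaks 26 were centred before it (83.9%, interval 67.4 to 92.9), and the median centre of the 31 lay 482 bp before it. Over other protein-coding genes 73.8% of promoter peaks were centred before the start. The start base itself was covered in 9 of the 29 genes (31%, interval 17.3 to 49.2). Of other protein-coding genes with a promoter peak 35.2% had it covered. In the 1000 bp before the start, 28 of 63 members had a peak (44.4%, interval 32.8 to 56.7), against 31% of all genes and 32.4% of length-matched genes. The length-matched share lay just below this interval. In the 1000 bp after the start it was 12 of 63 (19.0%), against 18.1% of all genes. The split at the start was chosen after the values of the whole promoter were seen.

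**Figure D5:**
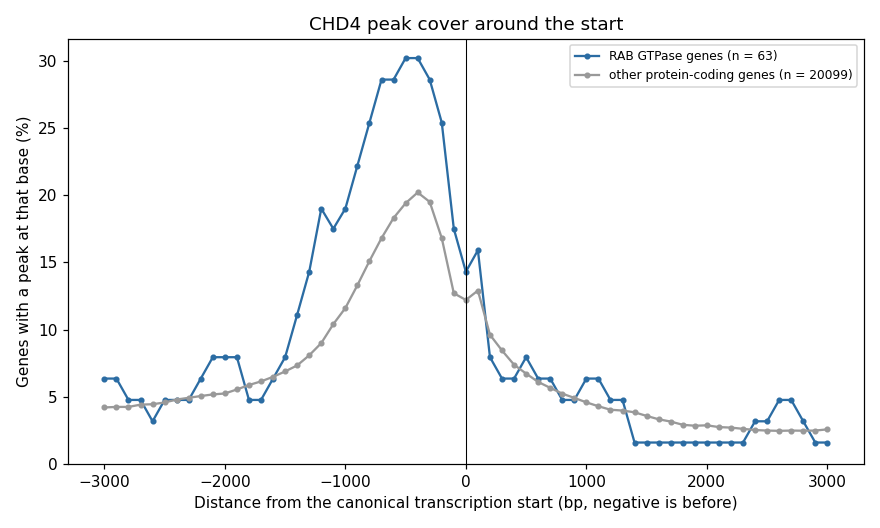
Share of genes with a CHD4 peak at each base (y axis, percent) from 3000 bp before to 3000 bp after the canonical start (x axis, steps of 100 bp). The line of the RAB GTPase genes (blue, n = 63) rises to 30.2% at 500 bp before the start and stands at 14.3% on the start base, and that of other protein-coding genes (grey, n = 20099) reaches 20.2% at 400 bp before and 12.2% on the start base.

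Members with and without a promoter peak had similar CpG ratios at the start. The median observed-to-expected CpG ratio of the 1000 bp around the start was 0.74 with a promoter peak and 0.79 without, while over all genes it was 0.773 and 0.667. RAB17, with a ratio of 0.251, had a promoter peak in a CpG-poor region. Sequence words of factors known in melanocytes were counted on both strands within 250 bp of each peak centre. CATGTG and CACGTG are E-boxes of the kind bound by MITF, TGANTCA is the AP-1 site, ACAAAG the SOX core and CCGGAAG an ETS site, and none of these words contains another. CATGTG was found at 29.1% of the RAB peaks (46 of 158, interval 22.6 to 36.6) against 33.7% of all peaks, and CACGTG at 9.49% against 7.97%. TGANTCA was found at 15.8% against 18.1%, ACAAAG at 38% against 37.7% and CCGGAAG at 3.80% against 2.93%. The share over all peaks lay within the members' interval for each word. Of the sequences printed, those of RAB14 and RAB30 hold CATGTG, those of RAB30 and RAB7A hold ACAAAG, and those of RAB3A, RAB11A and RAB38 hold none of the 5 words.

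Genes that regulate RABs or act as their effectors carried CHD4 at a high share. The 85 genes are a list chosen with earlier results of these data known. Of them 76 had a peak (89.4%, interval 81.1 to 94.3), against 69.4% of length-matched genes. The length-matched share lay outside the interval, which covers counting only and not the choice of the list. With peaks of a −log10 q of at least 5 alone the share was 5.88% (5 of 85, interval 2.54 to 13) against 6.78% of length-matched genes. No excess was seen there, but 5 genes are too few to tell whether it is absent. Promoter peaks were found at 52 of them (61.2%, interval 50.5 to 70.8), against 35.9% of length-matched genes. By class a peak was present in 20 of 21 GTPase-activating proteins (95.2%, against 72.9% of length-matched genes). Exchange factors had one in 20 of 22 (90.9% against 70.2%) and effectors in 29 of 34 (85.3% against 71%). In prenylation and GTPase recycling it was 7 of 8 genes (87.5% against 51.9%). The highest folds were those of SYTL2 (5.19, 20 peaks), a synaptotagmin-like effector of RAB27A, and of the GTPase-activating proteins USP6NL (4.72), TBC1D17 (4.61), TBC1D14 (4.56) and TBC1D16 (4.53). Partners of the melanosome RABs were found with and without peaks. MLPH, melanophilin, had 5 with a highest fold of 3.91, MYO5A, the myosin Va heavy chain, 11 with 3.75, and HPS1 and HPS4, the exchange factor of RAB32 and RAB38, 4 with 3.52 and 2 with 3.27. The RAB27 effectors RPH3AL, SYTL4 and SYTL5 had none. SYTL4 and SYTL5 lie on chromosome X, where 23.9% of all protein-coding genes had a peak. The other genes of the list without a peak were MON1B, RAB11FIP2, RAB11FIP5, RAB3GAP1, RABGEF1 and RABGGTB.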

How the data were processed

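CHD4 ChIP and input chromatin of 501Mel cells were sequenced once each. Per the submitters' processing notes the tools were bcl2fastq 2.17.1.14, Bowtie 1.0.0 and MACS2 2.1.1.20160309, on hg19. The authors deposited 1 broad peak list. The score in it, a whole number the authors' peak caller derived, was deposited as such and not used for results. The deposited fold enrichment is a ratio of ChIP over the background of the caller, and the deposited −log10 q-value ranked and filtered peaks; the −log10 p column was not used. Whether the input served as control for the peak calling is not given in the sources used here. The list holds no read counts, so no depth was used.

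Peaks were counted from 1 and intersected with GENCODE release 44 on GRCh37 (overlap of 1 bp), and 3 peaks off chromosomes 1 to 22, X and Y were left out. Canonical transcripts gave starts and introns. Length matching averaged other genes over 20 window-length classes, and genes of similar length were those within 10%. Named were melanosome members, RAB7A, RAB1A, RAB17, paralogues, the 10 members of highest fold, the 5 with most peaks, every member without a peak, and of the regulators the 5 of highest fold with MLPH, MYO5A, HPS1 and HPS4; the other genes were named to account for every member. Members and lists were chosen with earlier results of these data known. Alternatives were other q thresholds, joined peaks, 100 bp of overlap, other windows, other promoter widths, other length matching and a wider member rule. The statistics were tested on simulated data. Software was Python 3.11.15, matplotlib 3.10.9, numba 0.67.0, scipy 1.17.1, numpy 2.4.6, pysam 0.24.0 and pandas 2.3.3.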

Additional observations from a re-analysis of the deposited data

How the results depend on the processing

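Of 59 recomputed values 50 stayed within the interval of the value reported and 9 moved outside it. Some of the 50 had little room to move, since joining peaks neither removes the peak of a gene nor lowers its strongest fold. Shares, peaks per 100 kb and folds cannot change sign. Only the 12 values of the excess of RAB GTPase genes over length-matched genes could, and all stayed positive. The interval of that excess ran from −3.36 to 19.1 percentage points, so values of either sign could stay within it. The 59 values do not include the excess of regulators and effectors over length-matched genes. That excess was 20 percentage points for any peak, 15.8 at a −log10 q of at least 2 and −0.899 at 5. The last value rests on 5 of 85 genes. The 9 values that moved came from stricter thresholds. When peaks under a −log10 q of 2 were dropped, the share of members with a peak was 55.6%, that with a promoter peak 28.6%, the peaks per 100 kb 2.35 and the share of regulators and effectors with a peak 70.6%. When those under 5 were dropped these were 6.35%, 3.17%, 0.129 and 5.88%, and the median strongest fold was 4.8. Fewer peaks enter by construction. The excess of the RAB GTPase genes over length-matched genes ranged from 1.70 to 12.4 percentage points. The settings without chromosome X, without the 3 members of lowest unique sequence and with the canonical transcript alone were added after the data were seen. The list shows no read depth, so whether a window without a peak lacked CHD4 or lacked reads cannot be told apart. No paired analysis was possible because neither library has a replicate.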
